A study of Rattus norvegicus with 2 samples.

Results

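Expression of 54 genes of the antioxidant defence, read through 61 probe sets, was compared in the left adrenal medulla between rats with recurrent hypoglycemia (RH) and saline controls. The members are the glutathione S-transferase, glutathione peroxidase, peroxiredoxin, thioredoxin reductase and superoxide dismutase families, taken by the start of the gene symbol, and 16 genes named singly, all 16 of which were found. They are part of 14217 named genes and 31042 probe sets of the Affymetrix rat array. Mt1a of the list is carried in the annotation under its present symbol Mt1. Probe sets annotated to more than 1 gene were not used as members.

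The 2RH30 group were adult male Sprague-Dawley rats that had received intraperitoneal human insulin at 2 IU/kg on 3 days, and the 2RS30 group had received saline on the same schedule. The methods give 2 injections per day and 1 on the third day. Both groups were fasted and underwent a hyperinsulinemic-hypoglycemic clamp on day 4, held at 40 to 50 mg/dL by the labels, and were killed 30 min after target glucose was reached. The methods give that range for the nadir of the earlier insulin episodes, and a target within it for the clamp. RNA of 6 rats was pooled and hybridized to 1 array per group, so no difference below has a replicate check, the spread between animals is unknown and no test was possible. In a pool of whole tissue, fewer cells of a type and less RNA per cell cannot be told apart.

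Glutathione is made from glutamate, cysteine and glycine by 2 ligases, is oxidized when glutathione peroxidases reduce peroxides, and is restored by glutathione reductase. The thioredoxin system is a parallel chain in which NADPH reduces thioredoxin through its reductase, and thioredoxin in turn reduces the peroxiredoxins. Many of these genes are targets of the transcription factor NRF2, which KEAP1 holds in check until electrophiles or oxidants modify it. Metallothioneins are small cysteine-rich proteins that bind zinc and copper and are induced by metals and glucocorticoids. The adrenal gland is a demanding site for these systems, because catecholamine breakdown in the medulla and cytochrome P450 reactions in the cortex both generate peroxide.

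All values are the log2 values deposited by the authors, and every difference is 2RH30 minus 2RS30, so that 1 on this scale is 2-fold. Where a gene has several probe sets, the one brightest on average stands for it. The arrays differed in ways that touch these genes. The bioB and cre hybridization controls, transcripts added to each sample, differed by -3.51 to -3.03 and by -0.58 to -0.30. The actin and GAPDH controls differed by 0.27 to 0.78. The median difference over all probe sets was -0.38 among the dimmest of 20 bins by level and 0.49 among the brightest. Since 33 of the 54 genes have a mean level at or above the median of named genes, each difference is also given level-adjusted, that is after a lowess curve of difference on level was subtracted. Between probe sets of the same gene the level-adjusted differences had an SD of 0.85 at mean levels of 5 to 7 (1977 genes) and 0.64 at levels of 7 and above (550 genes). No separate SD was computed below a level of 5, and the 0.85 is applied there too as the SD at that level. This SD holds no spread between animals and serves only as a yardstick.

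A further property of the 2RS30 array concerns single members. There, 10 exact values were each shared by 30 or more probe sets, 2335 probe sets (7.52%) in all, with 468 of them at 5.55, whereas on 2RH30 no value was shared by more than 25. The 2RS30 readings of Gclm and Gstm6l (both 6.09, with 330 probe sets at that exact value), Keap1 (6.53, with 253) and Gstp1 and Gstt2 (both 7.26, with 88) are such values. What produced them was not tested. Both pools carried the defining transcripts of chromaffin cells, with 7 of 7 markers at 6.36 to 11.5 in 2RS30 and 6.62 to 12.0 in 2RH30. Markers of the adrenal cortex were bright too, with 6 of 8 listed markers measured, at 9.67 to 12.9 and 10.2 to 13.6. The summed levels, as log2 of the sum of linear values, were 12.9 and 13.4 for chromaffin markers and 14.1 and 14.8 for cortical markers, and their level-adjusted medians were 0.09 and 0.06. The part of cortical tissue in the values below was not tested. The macrophage list, 8 of 8 measured, had a level-adjusted median of 0.74 with 4 (50%) at 2-fold or more higher, against 8.95% of all named genes. Its summed level was 9.88 in 2RS30 and 10.6 in 2RH30. Its part in the values below was not tested either.

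Of the 54 genes, 42 (77.8%) had a higher value in 2RH30 and 12 a lower one, where 56.1% of all named genes had a higher value. Level-adjusted, 70.4% of the members lay above 0, against 51.2% of all named genes. At 2-fold or more, 10 were higher and 4 lower, or 18.5% and 7.41%, against a background of 11.5% and 9.62% over all named genes. Level-adjusted, 6 were higher and 5 lower, against 8.95% and 9.31% of all named genes, and these shares of members, 11.1% and 9.26%, lie near the background. Of the genes past 2-fold, 71.4% were thus higher as deposited and 54.5% level-adjusted. Over all named genes, 1630 were past 2-fold higher and 1368 lower as deposited, and 1273 and 1324 level-adjusted. The median of the members was 0.44 as deposited, against 0.11 over all named genes, and 0.21 level-adjusted, against 0.02.

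The picture differed with the level of the gene. The median level of named genes was 5.84, and 33 members reached it. Of these 33, 29 (87.9%) had a higher value in 2RH30, against 68.5% of all named genes of this level. At 2-fold or more, 8 (24.2%) were higher and 0 lower, against 13.8% and 3.45% of those genes. Level-adjusted, 25 of these 33 (75.8%) lay above 0 and 8 below, against 49.7% of all named genes of this level above 0. At 2-fold or more, 3 (9.09%) were higher and 0 lower, against 6.98% and 6.99%. The 3 genes are Gclc, Txn1 and Prdx3. All 4 genes at 2-fold or more lower as deposited, Gsta3l1, Gsta3, Gstm6l and Gstm2, were glutathione S-transferases among the 21 dimmer members. By the yardstick of probe sets, 16 members (29.6%) differed by more than the SD when level-adjusted, 10 upward and 6 downward, where 26.2% of all named genes did.

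**Figure D1:**
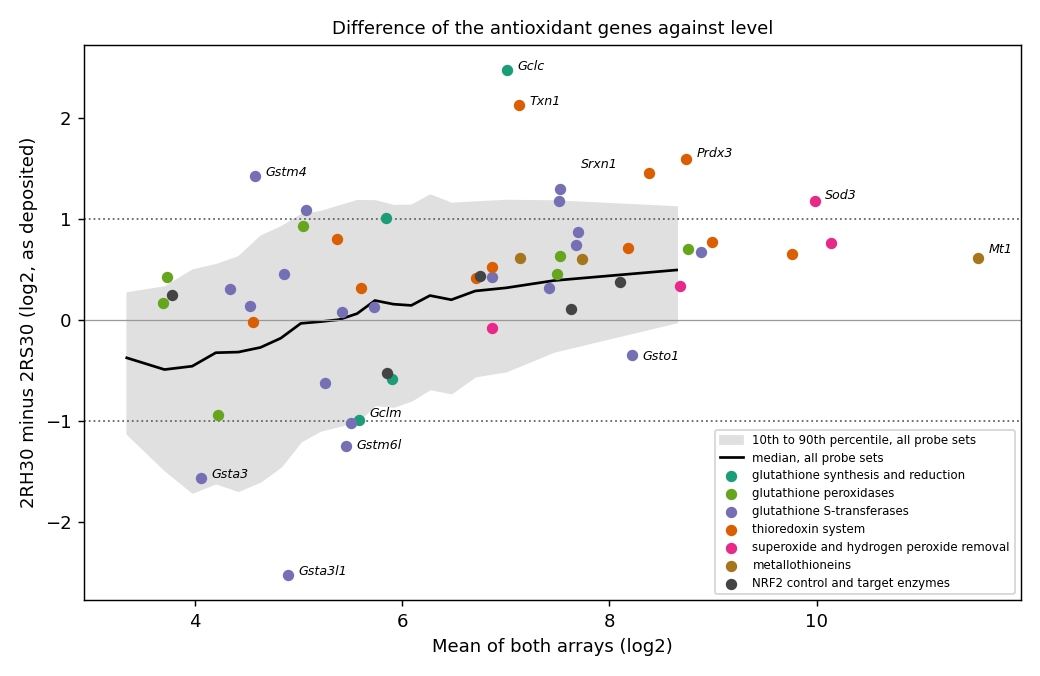
Difference between 2RH30 and 2RS30 (log2 as deposited, vertical axis) against the mean of both arrays (log2, horizontal axis) for the 54 antioxidant genes, coloured by group. The line and grey band give the median and the 10th to 90th percentile of all probe sets in 20 level bins, each placed at its median level; dotted lines mark a 2-fold difference. Gclc and Txn1 stand at the top, Gsta3l1 at the bottom, and most of the others lie inside the band.

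**Figure D2:**
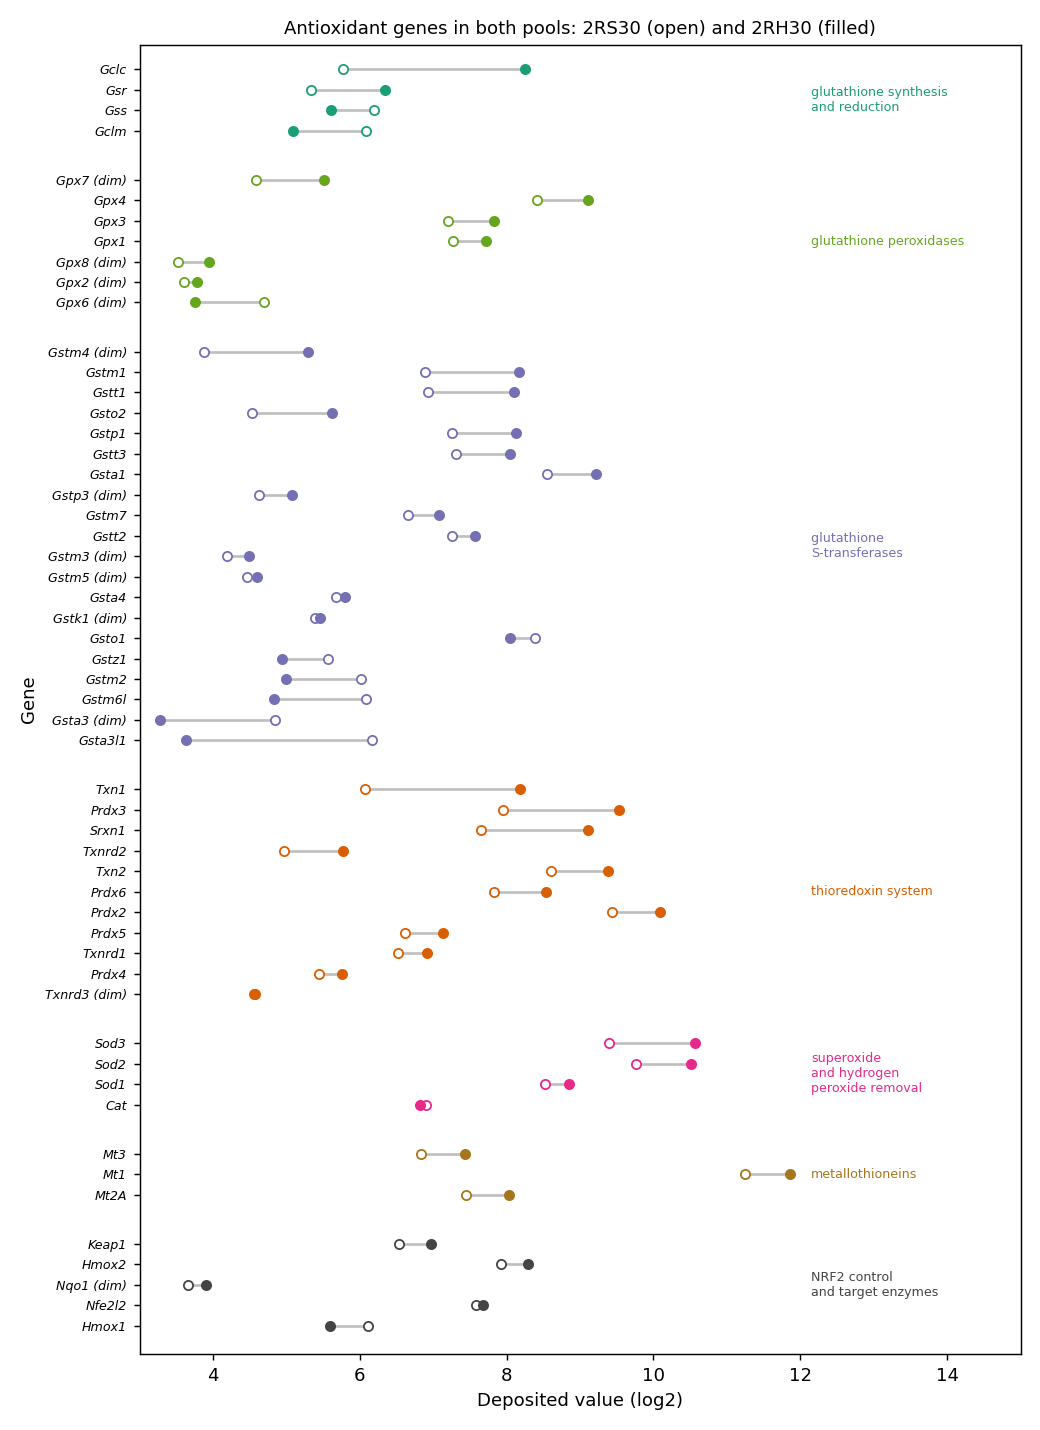
Deposited log2 value (horizontal axis) of each of the 54 genes (vertical axis) in 2RS30 (open) and 2RH30 (filled), joined by a line and sorted by difference within each group. Genes marked dim, 12 in all, lie below the median of the array in both pools. The genes at the top of the glutathione synthesis and thioredoxin groups move right from 2RS30 to 2RH30, and those at the foot of the transferase group move left.

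The 4 genes that make and recycle glutathione were divided, with Gclc and Gsr higher in 2RH30 and Gclm and Gss lower. Gclc, the catalytic subunit of glutamate-cysteine ligase and the rate-limiting step of synthesis, read 5.78 in 2RS30 and 8.25 in 2RH30. The gap was 2.47 (level-adjusted 2.15), or 5.55-fold, and of all probe sets within 0.5 of its level 0.333% were as far above. Its other probe set read 5.31 and 6.78, a difference of 1.46 (level-adjusted 1.28), so both readings of the gene were past 2-fold in either form. Gclm, the modifier subunit of the same enzyme, read 6.09 in 2RS30 and 5.09 in 2RH30 (-0.997, level-adjusted -1.09), just short of 2-fold as deposited and past it when adjusted. The 2RS30 value of Gclm is one of the shared values described above. Both subunits thus lay past the yardstick of their level, with opposite signs. For Gclm, 9.16% of probe sets of similar level were as far below. Gss, the ligase that adds glycine in the second step, read 6.20 and 5.61 (-0.59, level-adjusted -0.75), less than the SD at its level. Gsr, glutathione reductase, read 5.34 and 6.34, and its difference of 1.004 (level-adjusted 0.85) lay just past 2-fold, with 13.6% of probe sets of similar level as far above.

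Because both ligase subunits are textbook NRF2 targets yet read in opposite directions, the 250 bases before their starts are shown. They come from RefSeq for the GRCr8 assembly, both on the plus strand, at chr8:87510226-87510475 for Gclc and chr2:213031885-213032134 for Gclm. Capitals mark the core of the antioxidant response element, TGACNNNGC, to which NRF2 binds with a small MAF partner, and of the metal response element, TGCACNC or TGCGCNC, the site of the zinc sensor MTF1. Both strands were searched, and no 2 cores overlap in the windows shown here.
Gclc: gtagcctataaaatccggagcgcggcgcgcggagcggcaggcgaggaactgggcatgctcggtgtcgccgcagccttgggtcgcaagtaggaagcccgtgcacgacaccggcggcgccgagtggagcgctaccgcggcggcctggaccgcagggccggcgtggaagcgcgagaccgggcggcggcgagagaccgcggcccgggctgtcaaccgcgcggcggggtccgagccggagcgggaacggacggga
Gclm: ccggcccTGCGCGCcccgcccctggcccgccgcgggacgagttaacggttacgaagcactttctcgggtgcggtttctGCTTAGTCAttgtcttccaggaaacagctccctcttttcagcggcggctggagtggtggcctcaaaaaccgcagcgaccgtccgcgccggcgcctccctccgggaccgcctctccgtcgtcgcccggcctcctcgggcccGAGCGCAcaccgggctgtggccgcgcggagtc
No core of either kind occurs in this window of Gclc. That of Gclm holds 1 antioxidant core on the opposite strand at -172 to -164 and 2 metal cores. Over all 33469 RefSeq promoters, windows of this length held an antioxidant core in 10.1% and a metal core in 20.6%. Of 52 promoters found for 46 of the members, 12 (23.1%) and 14 (26.9%) did. Of the 46 members with a promoter, 12 held an antioxidant core and 7 were 2-fold or more higher by their brightest probe set, with 0 in both. Txnrd1 holds a core, and its other probe set was higher by 2.23. With so few genes, no link between core and difference can be read from this count. A match is a run of letters, not a measured site.

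The glutathione peroxidases, which reduce peroxides at the expense of glutathione, stayed under 2-fold as deposited. Of 7 genes measured, 6 (85.7%) had a higher value in 2RH30, against 56.1% of all named genes. At 2-fold or more as deposited there were 0, where 11.5% of all named genes were higher and 9.62% lower. The median was 0.45 (level-adjusted 0.23). Gpx4, which reduces lipid peroxides in membranes, read 8.41 in 2RS30 and 9.11 in 2RH30, with differences of 0.70 and 0.53 for its probe sets (level-adjusted 0.19 and 0.20). Gpx1, the main cytosolic form, read 7.27 and 7.72, a difference of 0.45 (level-adjusted 0.06). Gpx3, the secreted plasma form, read 7.21 and 7.83 (0.63, level-adjusted 0.23). These 3 are the members of the family that were not dim, and none of them exceeded the SD once adjusted. Gpx7, an enzyme of the endoplasmic reticulum, read 4.58 and 5.51 (0.93, level-adjusted 1.02), the highest of the family. Gpx6 was the lowest at 4.70 and 3.75 (-0.95, level-adjusted -0.55). Both are dim on both arrays, as were Gpx2 and Gpx8, at 0.16 and 0.42 (level-adjusted 0.61 and 0.87).

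The glutathione S-transferases, which join glutathione to electrophiles, had the widest range of differences of the 7 groups. Of 20 genes, 4 (20%) were 2-fold or more higher and 4 (20%) lower as deposited, against 11.5% and 9.62% of all named genes. Level-adjusted, 2 (10%) were higher and 4 (20%) lower, against 8.95% and 9.31%, so the share higher lies near the background. The median was 0.31 (level-adjusted 0.14). Gstm1, a mu class enzyme, read 6.88 in 2RS30 and 8.17 in 2RH30 (1.29, level-adjusted 0.89). Gstt1, of the theta class, read 6.93 and 8.10 (1.17, level-adjusted 0.78). Gsto2, an omega class enzyme that also recycles dehydroascorbate, read 4.53 and 5.61 (1.08, level-adjusted 1.16). These 3 exceeded the SD at their level in both forms. Of probe sets of similar level, 8.02% were as far above as Gstm1, 10.3% as Gstt1 and 9.45% as Gsto2. Gstm4 was higher by 1.42 (level-adjusted 1.69), from 3.88 to 5.29, but is dim on both arrays.

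On the other side, Gsta3l1, an alpha class gene, had the lowest difference of all members. It read 6.16 in 2RS30 and 3.63 in 2RH30 (-2.53, level-adjusted -2.37), and 1.08% of probe sets of similar level were as far below. Gsta3, its close relative and dim on both arrays, read 4.85 and 3.28 (-1.57, level-adjusted -1.14). In contrast, Gsta1 of the same class read 8.55 and 9.22 (0.67, level-adjusted 0.16), and Gsta4, which acts on lipid aldehydes, read 5.67 and 5.79 (0.12, level-adjusted -0.01). The mu class was divided as well. Gstm2 read 6.02 in 2RS30 and 4.997 in 2RH30 (-1.03, level-adjusted -1.10). Gstm6l read 6.09 and 4.84 (-1.25, level-adjusted -1.31), with a shared 2RS30 value. Of probe sets of similar level, 9.11% were as far below as Gstm2 and 6.15% as Gstm6l. Of 7 genes in this class 5 (71.4%) were above 0, against 56.1% of all named genes as deposited and 51.2% level-adjusted. Transferases of a class are alike in sequence, and whether these probe sets tell close relatives apart was not examined.

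Among the remaining transferases, Gstp1, the pi class enzyme, read 7.26 and 8.13 (0.87, level-adjusted 0.45), again from a shared 2RS30 value. Gsto1, the second omega class gene, was lower while Gsto2 was higher: it read 8.39 and 8.04, a difference of -0.35 that became -0.82 when level-adjusted, past the SD at its level. Gstz1, which also isomerizes maleylacetoacetate in tyrosine breakdown, read 5.57 and 4.94 (-0.63, level-adjusted -0.62). Gstt2 read 7.26 and 7.57 (0.32, level-adjusted -0.07), and its other probe set differed by -0.52 (level-adjusted -0.62), so as deposited its sign depends on the probe set, and level-adjusted both lie below 0. Of the 6 transferases not named singly here, all above 0 as deposited, differences lay between the 0.07 of Gstk1 and the 0.74 of Gstt3.

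The thioredoxin system read higher in 2RH30 in all genes but the dim Txnrd3. Of 11 genes, 10 (90.9%) read higher in 2RH30, against 56.1% of all named genes. At 2-fold or more, 3 (27.3%) were higher and 0 lower, against 11.5% and 9.62%. Among named genes at or above the median level, where most of these genes lie, these 3 shares were 68.5%, 13.8% and 3.45%. The median was 0.71 as deposited, the highest of the groups of 5 or more genes, and 0.26 level-adjusted. Level-adjusted, 11 of 11 genes lay above 0, against 51.2% of all named genes, and 2 (18.2%) were at 2-fold or more higher, against 8.95%. Txn1, cytosolic thioredoxin, read 6.06 in 2RS30 and 8.19 in 2RH30. Its difference of 2.12 (level-adjusted 1.78), or 4.35-fold, was reached by 0.955% of probe sets of similar level, and the gene has 1 probe set. Prdx3, the mitochondrial peroxiredoxin, read 7.94 and 9.53 (1.59, level-adjusted 1.08), and 2.36% of probe sets of similar level were as far above. Srxn1, the sulfiredoxin that restores over-oxidized peroxiredoxins, read 7.65 and 9.10 (1.45, level-adjusted 0.96) in its brightest probe set. The remaining probe sets gave 0.56 and 0.21 (level-adjusted 0.12 and 0.02), so the size of this difference rests on 1 reading of 3.

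The other 8 genes of this system had level-adjusted differences of 0.12 to 0.78. Txn2, the mitochondrial thioredoxin, read 8.61 and 9.37 (0.77, level-adjusted 0.26). Prdx2, an abundant cytosolic form, read 9.44 and 10.1 (0.65, level-adjusted 0.12), and Prdx6 read 7.82 and 8.53 (0.71, level-adjusted 0.24). Prdx5 and Prdx4, the latter resident in the endoplasmic reticulum, differed by 0.52 and 0.31 (level-adjusted 0.22 and 0.21). The 5 peroxiredoxins with a probe set of their own were thus above 0 in both forms, and apart from Prdx3 none exceeded the SD when adjusted. A further probe set, whose annotation joins 2 peroxiredoxin names and which is therefore no member, read 8.17 and 8.22 (0.05, level-adjusted -0.43). Txnrd2, the mitochondrial reductase, read 4.97 and 5.77 (0.80, level-adjusted 0.78), less than the SD at its level. The dim Txnrd3 read 4.58 and 4.55, the only gene of the group below 0 as deposited.

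The cytosolic reductase Txnrd1 gave 2 unlike readings. Its brighter probe set read 6.51 in 2RS30 and 6.92 in 2RH30 (0.41, level-adjusted 0.13). The other read 4.95 and 7.18, a difference of 2.23 (level-adjusted 2.05), with 0.822% of probe sets of similar level as far above. The mean over both was 1.32. RefSeq lists 2 starts of this gene, and which transcripts each probe set reads was not examined. The window of the start with an antioxidant core (capitals, opposite strand, -78 to -70) lies on the minus strand at chr7:22755905-22756154, and is shown because the gene is the member whose readings were furthest apart.
Txnrd1: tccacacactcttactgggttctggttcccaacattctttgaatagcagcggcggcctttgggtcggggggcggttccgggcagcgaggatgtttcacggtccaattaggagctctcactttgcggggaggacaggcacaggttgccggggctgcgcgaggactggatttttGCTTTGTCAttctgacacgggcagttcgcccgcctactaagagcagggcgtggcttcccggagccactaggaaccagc
The window of the other start holds no core.

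**Figure D3:**
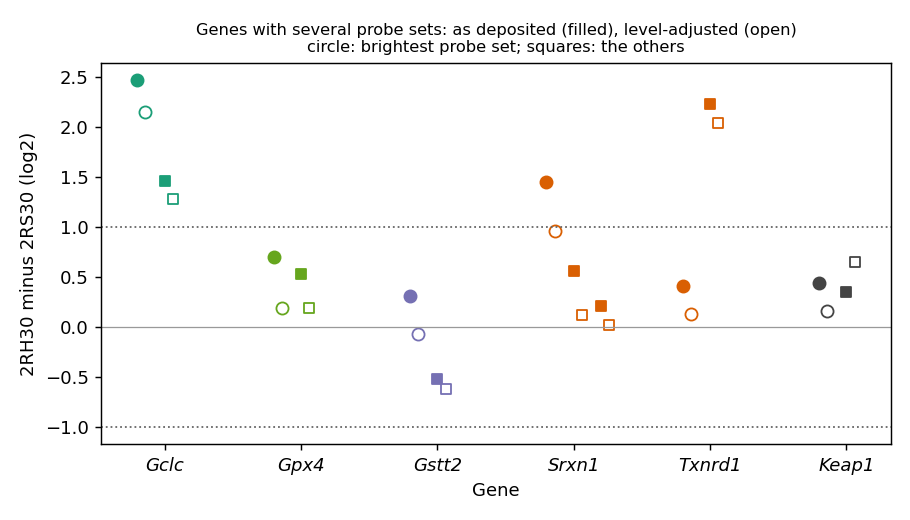
Each probe set of the 6 genes that have more than 1 (horizontal axis) is placed by its 2RH30 minus 2RS30 value in log2 units (vertical axis), filled as deposited and open after level adjustment; the circle is the brightest probe set and squares are the others. Dotted lines mark a 2-fold difference. Both readings of Gclc lie above the upper line, whereas as deposited those of Txnrd1 and Srxn1 lie on both sides of it and those of Gstt2 on both sides of 0.

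Superoxide dismutases turn superoxide into hydrogen peroxide, which catalase breaks down. Sod3, the extracellular dismutase, read 9.39 in 2RS30 and 10.6 in 2RH30 (1.17, level-adjusted 0.63), and 2.42% of probe sets of similar level were as far above. Sod2, the mitochondrial manganese enzyme, read 9.76 and 10.5 (0.76, level-adjusted 0.22). Sod1, the cytosolic copper-zinc enzyme, read 8.52 and 8.85 (0.33, level-adjusted -0.17). Cat, catalase of peroxisomes, read 6.91 and 6.83 (-0.08, level-adjusted -0.38). Sod3 is thus the only gene of these 4 at 2-fold as deposited, and level-adjusted it lies just under the SD of 0.64.

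**Figure D4:**
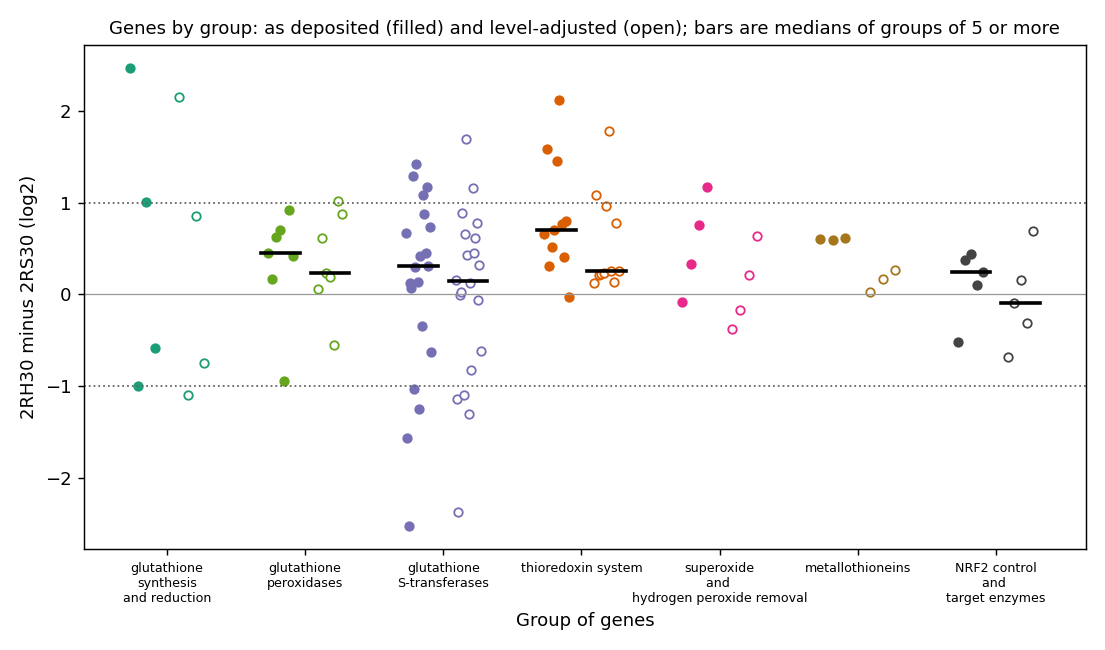
Every gene of the 7 groups (horizontal axis) by its 2RH30 minus 2RS30 value in log2 units (vertical axis), filled for deposited values and open for level-adjusted ones. Bars are medians of the groups of 5 or more genes, and dotted lines mark 2-fold. The adjustment lowers the thioredoxin median from 0.71 to 0.26 with all 11 genes above 0, and brings that of the NRF2 group from 0.25 to -0.09.

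The 3 metallothioneins were higher in 2RH30 by nearly equal amounts as deposited, and close to the level trend when adjusted. Mt1 read 11.3 in the saline pool and 11.9 in the RH pool, a difference of 0.61 (level-adjusted 0.03). Mt2A read 7.44 and 8.04, a difference of 0.60 (level-adjusted 0.17). Mt3, which is best known from brain, read 6.83 and 7.44, a difference of 0.61 (level-adjusted 0.27). None of the 3 exceeded the SD at its level, and 29.0% to 35.8% of probe sets of similar level were as far above.

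The 3 genes lie near each other on chromosome 19 of GRCr8 and are shown because they read alike. Their windows lie on the minus strand at chr19:10832976-10833225 for Mt1, chr19:10838709-10838958 for Mt2A and chr19:10856081-10856330 for Mt3, with capitals as above.
Mt1: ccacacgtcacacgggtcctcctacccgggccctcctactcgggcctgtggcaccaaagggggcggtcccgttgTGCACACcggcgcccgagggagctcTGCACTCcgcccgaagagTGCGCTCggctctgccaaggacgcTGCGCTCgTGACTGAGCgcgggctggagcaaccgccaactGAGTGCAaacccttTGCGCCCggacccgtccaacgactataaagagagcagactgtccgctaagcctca
Mt2A: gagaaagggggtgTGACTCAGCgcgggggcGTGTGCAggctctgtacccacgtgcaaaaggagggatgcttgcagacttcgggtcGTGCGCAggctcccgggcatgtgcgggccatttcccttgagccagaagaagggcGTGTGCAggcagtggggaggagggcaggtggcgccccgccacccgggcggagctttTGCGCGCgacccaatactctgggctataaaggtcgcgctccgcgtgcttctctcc
Mt3: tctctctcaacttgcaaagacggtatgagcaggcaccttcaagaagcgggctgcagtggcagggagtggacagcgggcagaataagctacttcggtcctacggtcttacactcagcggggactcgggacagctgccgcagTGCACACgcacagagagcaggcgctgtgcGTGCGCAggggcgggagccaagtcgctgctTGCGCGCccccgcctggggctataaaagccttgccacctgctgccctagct
The window of Mt1 holds 6 metal cores, that of Mt2A 4 and that of Mt3 3, where 1.17% of all promoters hold 3 or more and 0.0269% hold 6 or more. Mt1 and Mt2A also hold 1 antioxidant core each. The metal core nearest to the start lies at -55 to -49 in both Mt1 and Mt2A and at -51 to -45 in Mt3.

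**Figure D5:**
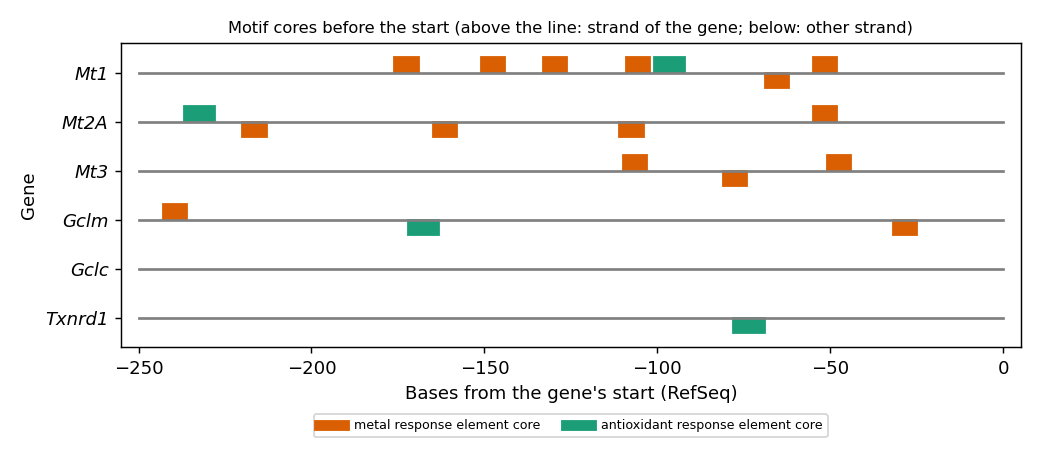
Positions of metal response element cores and antioxidant response element cores in the 250 bases before the start of 6 genes (horizontal axis, bases from the RefSeq start), above the line on the strand of the gene and below it on the other. Mt1 has 6 metal cores, Mt2A 4, Mt3 3 and Gclm 2, Mt1, Mt2A, Gclm and Txnrd1 have 1 antioxidant core each, and Gclc has none of either.

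None of the 5 genes of NRF2 control and its classic enzymes passed the SD at its level in either form. Nfe2l2, which encodes NRF2, read 7.58 in 2RS30 and 7.68 in 2RH30 (0.10, level-adjusted -0.31). Keap1, its inhibitor, read 6.53 and 6.97 (0.44, level-adjusted 0.16), from a shared 2RS30 value, and its dim probe set differed by 0.35 (level-adjusted 0.65). Hmox1, the inducible heme oxygenase, was the lowest of this group at 6.12 and 5.59 (-0.52, level-adjusted -0.68), while the constitutive Hmox2 read 7.92 and 8.29 (0.37, level-adjusted -0.09). Nqo1, a quinone reductase and common readout of NRF2, was dim at 3.65 and 3.90 (0.25, level-adjusted 0.70). Of these 5 genes 0 were at 2-fold in either form. Over all named genes, 11.5% were higher and 9.62% lower as deposited, and 8.95% and 9.31% level-adjusted. The group median went from 0.25 as deposited to -0.09 with the level adjustment. Of targets outside these 5, taken as examples, Gclc, Txn1 and Srxn1 read higher in 2RH30, and Gclm lower from a shared 2RS30 value. Srxn1 was past the SD in its brightest probe set but not in the others. Hmox1, one of the 5, read lower within the SD. The examples are not all targets among the members, so they give no share of targets higher or lower.

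Genes of the same pathways outside the members were mixed as well. Of 70 listed, 66 were measured, and 15 (22.7%) were 2-fold or more higher and 1 (1.52%) lower in the deposited values, where 11.5% and 9.62% of all named genes were. Level-adjusted, 9 (13.6%) were higher and 3 (4.55%) lower, against 8.95% and 9.31%. The median was 0.23 in the deposited values and -0.03 with the adjustment, against 0.11 and 0.02 over all named genes. Among 17 measured target enzymes of NRF2, 6 (35.3%) were 2-fold or more higher as deposited and 2 (11.8%) level-adjusted, the latter share near the 8.95% of all named genes. Those 2 are Tkt, transketolase of the pentose phosphate pathway, at 6.24 and 8.03 (1.79, level-adjusted 1.45), and Ptgr1, a reductase of lipid aldehydes, at 5.11 and 6.63 (1.51, level-adjusted 1.36). Slc7a11, the cystine importer that feeds glutathione synthesis, was the lowest of the list at 6.51 and 5.06 (-1.45, level-adjusted -1.60). Of 9 partners and regulators of NRF2, 1 (11.1%) was at 2-fold in both forms, the ubiquitin ligase subunit Btrc (1.80, level-adjusted 1.61). That share lies near the 11.5% and 8.95% of all named genes.

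Among 15 genes of glutathione turnover 2 (13.3%) were 2-fold or more higher and 0 lower as deposited. Level-adjusted, 2 (13.3%) were higher and 1 (6.67%) lower. Over all named genes, 11.5% were higher and 9.62% lower as deposited, and 8.95% and 9.31% level-adjusted. The shares of turnover genes higher thus lie near the background. The 2 higher genes are the gamma-glutamyltransferase genes Ggt7, at 4.39 in 2RS30 and 6.26 in 2RH30 (1.87, level-adjusted 1.86), and Ggt1, at 4.69 and 5.70 (1.01, level-adjusted 1.04). Chac1, which degrades glutathione, read 6.63 and 5.81 (-0.82, level-adjusted -1.01). Of 13 genes of thiol repair 3 (23.1%) were 2-fold or more higher as deposited, and 2 (15.4%) level-adjusted. Glrx, glutaredoxin, read 5.33 and 6.99 (1.66, level-adjusted 1.46), and Txndc17, a thioredoxin-like protein, read 5.58 and 6.84 (1.25, level-adjusted 1.06). Of 7 genes of superoxide and metal handling 2 (28.6%) were higher by that much as deposited, and 1 (14.3%) level-adjusted. The latter is Atox1, a copper chaperone, at 6.09 and 7.95 (1.85, level-adjusted 1.53).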

How the data were processed

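Total RNA of 6 left adrenal medullae per group was pooled by the authors for a single Affymetrix Rat Genome array. For each array the deposited table gives a log2 value per probe set. The submitters' processing notes name Affymetrix Expression Console without a version, and the methods name GCRMA in Partek for the authors' own analysis. The methods describe the deposited data as quantile-normalized. Yet the 5th percentile was 3.67 in 2RS30 and 3.16 in 2RH30, so the values of these arrays do not share the same distribution. The sources used here do not give the summarization behind the deposited values. Their log2 scale was read from their range. Of the probe sets, 57 array controls were set aside. Of the other 31042, 20826 name 1 gene, 436 several and 9780 none. Gene numbers of 20758 probe sets matched RefSeq (GRCr8), which gave present symbols.

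No test was run and no p-value is given, since 1 array per group leaves no replicate, and this limits the precision of every value. Counts use 2-fold, as the study did. The level adjustment was a lowess curve (fraction 0.3, 3 iterations). It was tried on simulated data with a straight trend and less noise than the spread between probe sets here. That trial does not show how well 2-fold calls are recovered in these arrays. Genes below the median of their array in both pools are called dim. The SD between probe sets was pooled over 2539 genes with 2 or more probe sets that are not dim. Promoters were searched over the 250 bases before each start.

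Named are the 16 listed genes, each member at 2-fold or more that is not dim, and the highest and lowest member of each group; other members, and the pathway genes at 2-fold, were named after their values were seen. The members, groups and lists were chosen with earlier results of these data known. Alternatives were centring, quantile normalization, lowess, leaving out dim probe sets, the mean over probe sets, leaving out probe sets of several transcripts, and 1.5-fold and 3-fold thresholds. Leaving out shared 2RS30 values, and lowess with the mean over probe sets, were added after the data were seen. Python 3.11.15, pandas 2.3.3, numpy 2.4.6, statsmodels 0.14.6 and matplotlib 3.10.9 were used.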

Additional observations from a re-analysis of the deposited data

Results flagged for a closer look

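A probe set outside the comparisons above, whose annotation joins 3 gene names including a metallothionein and an unrelated gene, went from 5.96 in the saline pool to 7.83 in the RH pool, higher by 1.86 (level-adjusted 1.56). It was singled out because it was 2-fold or more higher in 2RH30 among probe sets that join a name under the member rule with other names. Such probe sets were not used for the members. The other 2 such probe sets, which join 2 peroxiredoxin names and 2 names of alpha class glutathione S-transferases, differed by 0.05 and -0.24 (level-adjusted -0.43 and -0.37). The value of the first cannot be given to any of the genes, and the probe set of Mt1 alone differed by 0.61.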

How the results depend on the processing

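The number of members at 2-fold or more higher, 10 as deposited, was 6 after quantile normalization and 6 after lowess, 24 at 1.5-fold and 3 at 3-fold. The number lower, 4, was 8 at 1.5-fold and 1 at 3-fold, which differ by construction. Under the other settings both counts stayed within 1.5 times. The median over members, 0.44, was 0.22 after quantile normalization, 0.21 after lowess, 0.23 when lowess was joined with averaging of probe sets and 0.60 without dim probe sets. That of the thioredoxin system, 0.71, was 0.25, 0.26 and 0.26 under the first 3 of these. The NRF2 group kept within the SD between probe sets over the root of its size, but its sign changed, from 0.25 to -0.11 after quantile normalization and -0.09 after lowess. The medians of peroxidases and transferases stayed within that measure under each setting. Of 322 values of single genes under the alternatives, 317 stayed inside the probe-set SD and 5 did not. Most of these values could hardly move, so the count says little about stability. Averaging probe sets leaves the 48 genes with 1 probe set as they were, and centring shifts every gene by the same 0.017. With the mean over probe sets, Srxn1 went from 1.45 to 0.74 and Txnrd1 from 0.41 to 1.32; joined with lowess, Srxn1 was 0.37, Gclc 1.72 against 2.47, and Gstt2 -0.34 against 0.32. Beyond the thresholds, the cause was not tested. No paired analysis was possible because only 1 array stands for each group, and for that reason no array could be left out. A pseudocount does not apply to log2 values and was not run. The median over named genes at or above the median level went from 0.31 to -0.01 with lowess. Without background readings, how far dim probe sets stand above background is unknown.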

Other observations

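Sources of superoxide had lower values in 2RH30 with 1 exception. Of 6 genes listed, 5 were measured, and 4 had a value below that of 2RS30 in both forms. Among these 4, Nox4 is dim at 3.68 and 3.17 (-0.51, level-adjusted -0.08), with a 2RS30 value shared by 155 probe sets. Of all named genes, 56.1% had a higher value as deposited and 51.2% level-adjusted. Subunits of the phagocyte NADPH oxidase read 7.45 in 2RS30 and 6.67 in 2RH30 for Cybb (-0.78, level-adjusted -1.10), 7.32 and 6.80 for Cyba (-0.52, level-adjusted -0.85) and 6.14 and 5.55 for Ncf1 (-0.59, level-adjusted -0.75). Xdh, xanthine dehydrogenase, read 6.21 and 7.55 (1.34, level-adjusted 1.04). Of the 8 macrophage and leukocyte markers, 6 had a higher value in 2RH30 and 2 a lower one in both forms. The higher ones were C1qa at 2.71, Cd68 at 1.60, C1qb at 1.38, C1qc at 1.33, Lyz2 at 0.55 and Aif1 at 0.36, and the lower ones Csf1r at -0.77 and Ptprc at -0.71. The part of these cells in the oxidase values was not tested.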
